A study of Mus musculus with 4 samples.

Results

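The ETS family of transcription factors was examined through 10 of its genes, Spi1, Elf1, Elf4, Ets1, Ets2, Fli1, Gabpa, Elk3, Etv3 and Etv6, in dendritic cells (DC) of the mouse spleen after TCDD. TCDD is a dioxin that binds the aryl hydrocarbon receptor, a ligand-activated transcription factor. Every probe set annotated to 1 of these symbols was taken, which gave 20 of the 22626 probe sets on the array that are not controls. A probe set is the group of short array probes that reports 1 transcript or part of it. The genes were picked with the TCDD against DMSO values of these same arrays already known, so the members' differences are given as a description with no test. RNA came from 2 groups of C57BL/6 females aged 8 to 12 weeks, treated by intraperitoneal injection 24 h before the cells were taken. The TCDD group received 10 µg/kg TCDD in corn oil and the control group the DMSO solvent in corn oil. Per the labels each group had 3 mice, spleens were pooled and DC were sorted magnetically after a density gradient, and each group has 2 arrays numbered as biological replicates. The labels do not tell whether every array had mice of its own, so the spread between arrays may in part be technical.

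ETS factors share a DNA-binding fold, the ETS domain, that reads a GGAA core. PU.1, the product of Spi1, is required for myeloid cells and DC to form, and works on many composite sites with IRF4 or IRF8. Other members act as activators that respond to MAP kinase signals (Ets1, Ets2), as partners of serum response factor (Elk3) or as repressors (Etv3, Etv6). GABP, built from the Gabpa product and a beta subunit, drives many housekeeping and mitochondrial genes.

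All 11 conventional DC markers looked up, among them Itgax, Flt3, Zbtb46 and H2-Aa, lay above the dim threshold, which is log2 5.525, the 40th percentile of probe set means. Of 13 T and NK cell markers 6 lay below it (Cd3g, Cd2, Thy1, Cd28, Cd247 and Ncr1). So did 1 of 12 neutrophil markers, Lcn2. Of 10 B cell, 14 macrophage and monocyte, 7 erythroid and 7 megakaryocyte and platelet markers 0 lay below it. Lying above the threshold therefore does not set DC markers apart from those of other cells. The mean log2 level over 12 neutrophil markers was 7.32 in TCDD replicate 1 against 6.17 in TCDD replicate 2 and 6.33 and 6.04 in DMSO, and 3 of the 12 were higher and 1 lower without overlap (6 and 0 under quantile normalization, 6 and 1 under cyclic loess). TCDD replicate 1 also had the widest gap between 3′ end and middle in the control probe sets for Gapdh, 3.6 on the log2 scale against 2.0 in TCDD replicate 2 and 1.5 and 2.1 in DMSO. The part of either in the values below was not tested. Of the 11 conventional DC markers 4 were lower in both TCDD arrays and 0 higher, and quantile normalization and cyclic loess left 0 lower. Over all 12393 genes, each by its brightest probe set, 20.0% were higher and 19.4% lower without overlap. Plasmacytoid DC markers had a median difference of -0.05 (7 of 8 measured; 0.09 under quantile normalization and 0.05 under cyclic loess) and erythroid markers of 0.05 (7 of 9 measured; 0.30 and 0.22).

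Elf1 and 1 probe set of Gabpa were the members that lay furthest below DMSO, and 1 probe set of Etv3 the furthest above. By their mean over the 4 arrays 13 of the 20 probe sets were at or above the dim threshold and 7 below it; Etv3 1418636_at and Ets1 1422027_a_at were below it in both DMSO arrays and passed only through TCDD. Spi1, Elf4 and Etv6 showed no separation of the groups on any probe set. Among the 20 probe sets 11 had groups that did not overlap, against 37.4% of all probe sets. Both TCDD arrays were above both DMSO arrays in 4 (19.0% over all) and below both in 7 (18.4% over all). With a difference of at least 2-fold as well, 1 was higher (0.398% over all) and 4 were lower (2.35% over all): Elf1 and 1 probe set each of Gabpa, Ets1 and Fli1. These shares are a description only, since the same contrast was in view when the genes were picked. The median difference over the 20 was -0.07 on the log2 scale against 0.00 over all probe sets; it was -0.12 after median centring, and above 0 after quantile normalization (0.07) and cyclic loess (0.04). Median centring also changed the split over all probe sets, from 4306 higher and 4156 lower without overlap to 2977 and 5567. Without TCDD replicate 2 the members higher without overlap were 8, and without TCDD replicate 1 those lower were 11; with a single array in a group, groups separate more readily. Limma called 0 of the 22626 probe sets at an adjusted p under 0.05 (0.0%), so 0 members, with a smallest adjusted p of 0.349, and 2958 probe sets had an unadjusted p under 0.05. In bulk RNA, fewer cells of a kind and less RNA per cell cannot be told apart.

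**Figure D1:**
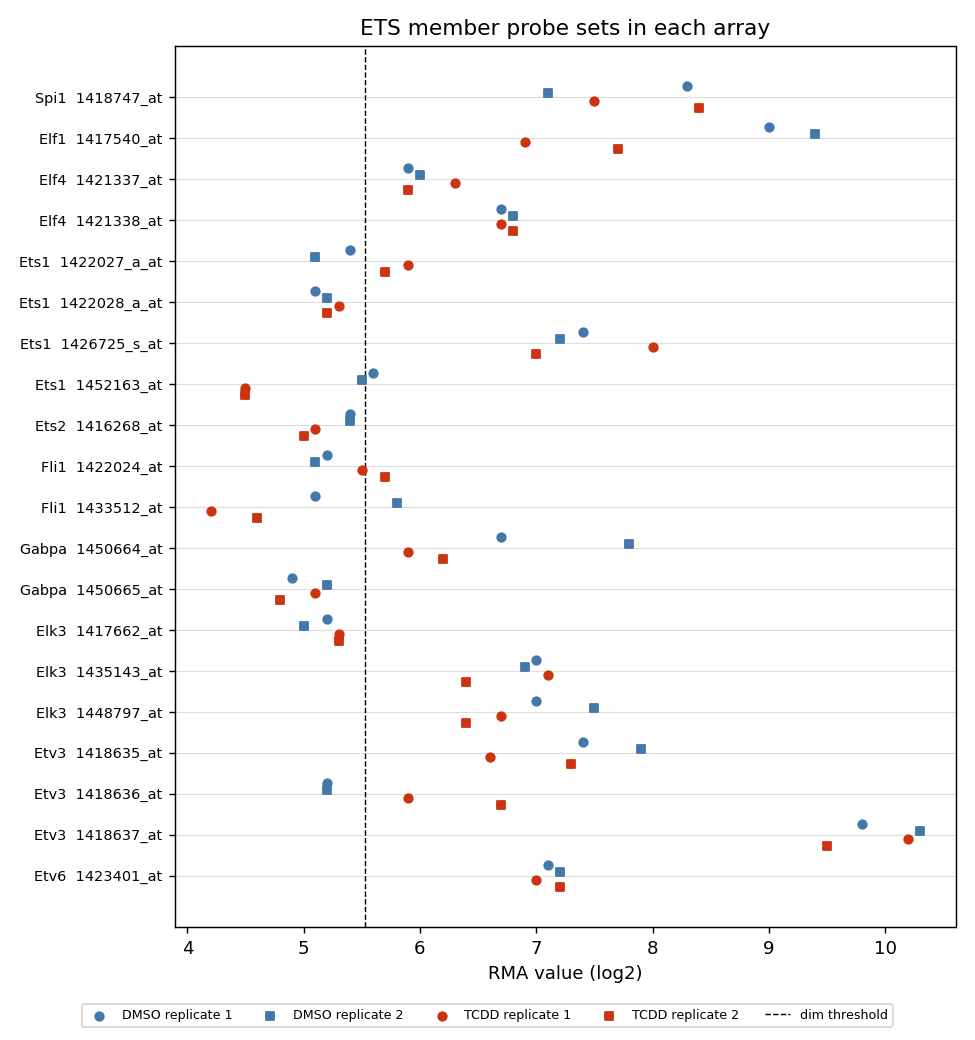
RMA value (log2, horizontal axis) of the 20 ETS member probe sets (rows) in the 2 DMSO arrays (blue) and the 2 TCDD arrays (red), circles for replicate 1 and squares for replicate 2; the dashed line is the dim threshold of 5.525. Both red points lie left of both blue points in 7 rows, Elf1 the widest, and right of them in 4 rows.

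Elf1 encodes an ETS factor of blood cells that activates lymphoid and endothelial genes. Its single probe set read 9.0 and 9.4 with DMSO and 6.9 and 7.7 with TCDD. Both TCDD arrays were lower and the groups did not overlap. The difference was -1.90 on the log2 scale (moderated SE 0.369, n = 2 arrays per group), 3.73-fold lower in TCDD. Only 20 of the 22626 probe sets had a larger difference in that direction. Probe sets of like brightness, with means from 8 to 9, had a median difference of -0.35. TCDD replicate 1 lay at -2.30 from the DMSO mean and TCDD replicate 2 at -1.50. Over 3 further normalizations the difference ranged from -1.95 to -1.62. No second Elf1 probe set was there to set beside it.

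Promoter windows were found for 2 starts of Elf1 on the plus strand of chromosome 14 (GRCm38.p6). The annotated gene begins at 79481174, shortly upstream of the first of these starts. The windows from 250 bases before to 50 after each start are shown because this gene had the widest difference; capitals mark the ETS core, GGAA on either strand (TTCC on the printed one).
Elf1 first start, chr14:79480944-79481243: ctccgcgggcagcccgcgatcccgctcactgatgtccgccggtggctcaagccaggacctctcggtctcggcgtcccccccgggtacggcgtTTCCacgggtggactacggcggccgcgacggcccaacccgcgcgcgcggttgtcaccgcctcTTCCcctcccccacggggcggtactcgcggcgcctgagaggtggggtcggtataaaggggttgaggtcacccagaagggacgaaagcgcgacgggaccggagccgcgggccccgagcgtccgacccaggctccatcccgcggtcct
Elf1 second start, chr14:79515424-79515723: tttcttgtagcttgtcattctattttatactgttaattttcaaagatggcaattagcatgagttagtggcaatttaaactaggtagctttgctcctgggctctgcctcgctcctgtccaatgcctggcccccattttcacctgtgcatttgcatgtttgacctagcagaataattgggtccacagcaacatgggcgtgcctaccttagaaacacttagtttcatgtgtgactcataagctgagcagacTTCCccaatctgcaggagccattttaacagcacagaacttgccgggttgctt
The core occurs 2 times in the first window and 1 time in the second, and 96.0% of the 32851 promoter windows of the table hold it at least once. The longer ETS site CCGGAAG (or CTTCCGG) is in neither, and in 8.86% of all windows. GCGTG (or CACGC), the core that the aryl hydrocarbon receptor binds, is absent from the first window, present 1 time in the second and present in 32.4% of all. The first window has 73.0% G and C and the second 44.7%, against a median of 52.7%. Letters that match are no evidence of binding, and which start the Elf1 probe set reports was not examined.

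Gabpa encodes the DNA-binding subunit of GABP. Of its 2 probe sets, 1450664_at lay above the dim threshold and read 6.7 and 7.8 with DMSO and 5.9 and 6.2 with TCDD. The groups did not overlap, but DMSO itself spanned 1.1. The difference was -1.20 (SE 0.467), and it was -0.65 without DMSO replicate 2 and -1.75 without DMSO replicate 1. The other probe set, 1450665_at, stood at 4.9 and 5.2 with DMSO and 5.1 and 4.8 with TCDD, a difference of -0.10 (SE 0.183). The groups overlapped there, and this probe set was dim, so a change of the transcript may not be visible in it. Both were designed on the same source sequence, per the annotation. Gabpb1, which encodes a beta subunit of GABP, also had a dim probe set and differed by 0.10.

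The Gabpa promoter on chromosome 16 was the only one of the 9 member windows found, which belong to 7 of the 10 genes, that held the longer ETS site. It is shown with GGAA cores of either strand in capitals.
Gabpa, plus strand, chr16:84834874-84835173: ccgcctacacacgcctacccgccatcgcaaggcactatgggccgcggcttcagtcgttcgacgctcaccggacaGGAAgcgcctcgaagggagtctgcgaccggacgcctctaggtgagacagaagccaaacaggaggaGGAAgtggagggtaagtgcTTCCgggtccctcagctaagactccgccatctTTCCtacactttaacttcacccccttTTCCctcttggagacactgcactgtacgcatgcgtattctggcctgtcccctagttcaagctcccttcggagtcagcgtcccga
The core occurs 5 times, and 1 of them lies within the longer site, read as CTTCCGG on the printed strand. This site begins 93 bases before the start on which the window is placed. The annotated gene begins upstream of the site, at 84834891. GCGTG or CACGC occurs 1 time here. It is present in 6 of the 9 windows and in 32.4% of all windows. The 9 windows hold from 44.7% to 75.3% G and C, against a median of 52.7% over all windows. The part of this in the 6 of 9 was not tested.

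Etv3 encodes a repressor that has been linked to the arrest of macrophage growth. Its 3 probe sets, all designed on the same source sequence, went different ways. Probe set 1418636_at read 5.2 and 5.2 with DMSO and 5.9 and 6.7 with TCDD, so both TCDD arrays were higher. Its difference was 1.10 (SE 0.331), with TCDD replicate 1 at 0.70 and TCDD replicate 2 at 1.50. The DMSO values lay under the dim threshold in both arrays, so the size of this difference is uncertain. Probe set 1418635_at read 7.4 and 7.9 with DMSO and 6.6 and 7.3 with TCDD, lower in both TCDD arrays by a narrow margin, with a difference of -0.70 (SE 0.355). Probe set 1418637_at read 9.8 and 10.3 with DMSO and 10.2 and 9.5 with TCDD. The groups overlapped there, and the difference of -0.20 (SE 0.355) ranged from -0.25 to 0.14 over the other normalizations. A direction for the Etv3 transcript as a whole can therefore not be given.

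The Etv3 promoter on chromosome 3 is shown because this gene holds the member probe set furthest above DMSO, with GGAA cores in capitals.
Etv3, plus strand, chr3:87525328-87525627: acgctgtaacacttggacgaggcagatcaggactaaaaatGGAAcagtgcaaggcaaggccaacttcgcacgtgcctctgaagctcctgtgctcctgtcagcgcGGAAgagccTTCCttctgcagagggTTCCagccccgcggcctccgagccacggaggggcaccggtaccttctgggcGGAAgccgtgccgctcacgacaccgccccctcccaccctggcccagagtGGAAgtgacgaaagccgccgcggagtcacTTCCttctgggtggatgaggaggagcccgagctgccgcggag
It holds the core 7 times, and neither CCGGAAG nor GCGTG on either strand.

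Ets1 encodes a factor best known from T, B and NK cells and has 4 probe sets. Probe set 1426725_s_at read 7.4 and 7.2 with DMSO and 8.0 and 7.0 with TCDD, a difference of 0.20 (SE 0.419). TCDD replicate 1 was the highest array and TCDD replicate 2 the lowest, so the groups overlapped. Probe set 1452163_at, from the same source sequence, read 5.6 and 5.5 with DMSO and 4.5 in both TCDD arrays. It was lower by a difference of -1.05 (SE 0.0744), with all 4 arrays close within their group, but its mean lay under the dim threshold. Probe set 1422027_a_at, whose mean equals that threshold, read 5.4 and 5.1 with DMSO and 5.9 and 5.7 with TCDD. Both TCDD arrays were higher, at a difference of 0.55 (SE 0.159), from DMSO values under the threshold. The dim probe set 1422028_a_at differed by 0.10. Beside this, the 13 T and NK cell markers measured of 16 listed had a mean log2 level of 5.82 and 5.77 with DMSO and 5.85 and 5.65 with TCDD, with 1 higher and 1 lower without overlap. Under quantile normalization these were 0 and 2, under median centring 0 and 3, and under cyclic loess 2 and 5. The 10 B cell markers measured of 11 stood at 6.83 and 6.80 with DMSO and 6.78 and 6.43 with TCDD, with 3 higher and 5 lower. For the B cell markers these were 2 and 3 under quantile normalization, and 2 and 5 under median centring and cyclic loess. Over all genes 20.0% were higher and 19.4% lower without overlap. The part of the T, NK and B cell markers in the Ets1 values was not tested.

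Fli1, the neighbour of Ets1 on chromosome 9 and a factor of blood stem cells and megakaryocytes, had 2 dim probe sets that opposed each other. Probe set 1422024_at read 5.2 and 5.1 with DMSO and 5.5 and 5.7 with TCDD, higher by 0.45 (SE 0.11). Probe set 1433512_at read 5.1 and 5.8 with DMSO and 4.2 and 4.6 with TCDD, a difference of -1.05 (SE 0.333). The groups were apart on both, in opposite directions. The 7 megakaryocyte and platelet markers measured of 9 had mean levels of 6.29 and 6.41 with DMSO and 6.73 and 6.46 with TCDD. Of these 3 were higher without overlap and 0 lower, where 20.0% of all genes were higher and 19.4% lower. The number of these markers that were higher was 1 after median centring and 4 under quantile normalization and cyclic loess. Their part was not tested. Ets2, a MAP kinase-responsive activator, had 1 dim probe set. It read 5.4 in both DMSO arrays and 5.1 and 5.0 with TCDD, and the groups were apart at a difference of -0.35 (SE 0.0744).

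Elk3, which binds DNA with serum response factor and can repress until it is phosphorylated, had 3 probe sets. Probe set 1448797_at read 7.0 and 7.5 with DMSO and 6.7 and 6.4 with TCDD, lower in both TCDD arrays at a difference of -0.70 (SE 0.245). Probe set 1435143_at read 7.0 and 6.9 with DMSO and 7.1 and 6.4 with TCDD, and the groups overlapped at a difference of -0.20 (SE 0.294). The dim probe set 1417662_at, from the same source sequence as 1448797_at, read 5.2 and 5.0 with DMSO and 5.3 in both TCDD arrays, a difference of 0.20 (SE 0.102). Srf, the partner of Elk3, read 7.8 and 7.3 with DMSO and 7.9 and 7.2 with TCDD, and its groups overlapped.

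Spi1 had 1 probe set, at 8.3 and 7.1 with DMSO and 7.5 and 8.4 with TCDD. The difference of 0.25 (SE 0.613) was smaller than the gap within DMSO, 1.2, and the gap within TCDD, 0.9. The array left out set its sign: the difference was 0.85 without DMSO replicate 1 and -0.35 without DMSO replicate 2. Elf4, which supports NK and CD8 T cells, read 6.7 and 6.8 with DMSO and 6.7 and 6.8 with TCDD on 1421338_at. Its other probe set, 1421337_at, stood at 5.9 and 6.0 with DMSO and 6.3 and 5.9 with TCDD, a difference of 0.15 (SE 0.179). Etv6, a repressor that blood stem cells need, read 7.1 and 7.2 with DMSO and 7.0 and 7.2 with TCDD, a difference of -0.05 (SE 0.11). For Spi1, Elf4 and Etv6 the groups overlapped on every probe set.

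Of the 6 members with more than 1 probe set, 4 had a probe set higher and another lower without overlap (Elk3, Ets1, Etv3 and Fli1), where 7.89% of the 4956 genes with several probe sets did. The share depends on the number of probe sets: it was 4.19% of genes with 2 probe sets, 10.2% with 3 and 15.9% with 4. Quantile normalization and cyclic loess left 2 of the 4, Ets1 and Fli1, and median centring left 3, at 9.58%, 13.4% and 7.99% over all genes. The differences of a gene's probe sets were at least 1 log2 unit apart in 4 of the 6 members, Ets1, Etv3, Fli1 and Gabpa, against 9.16% of all such genes. The span was 1.80 in Etv3, 1.60 in Ets1, 1.50 in Fli1, 1.10 in Gabpa, 0.90 in Elk3 and 0.15 in Elf4, with a median of 0.35 over all such genes. Several of these probe sets are dim, both of Fli1 among them. In each of the 4 genes with opposing probe sets, the higher one was dim or lay under the dim threshold in both DMSO arrays. In Ets1 and Fli1 the lower one was dim as well. The genes were picked with this contrast in view, so these shares are a description only.

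**Figure D2:**
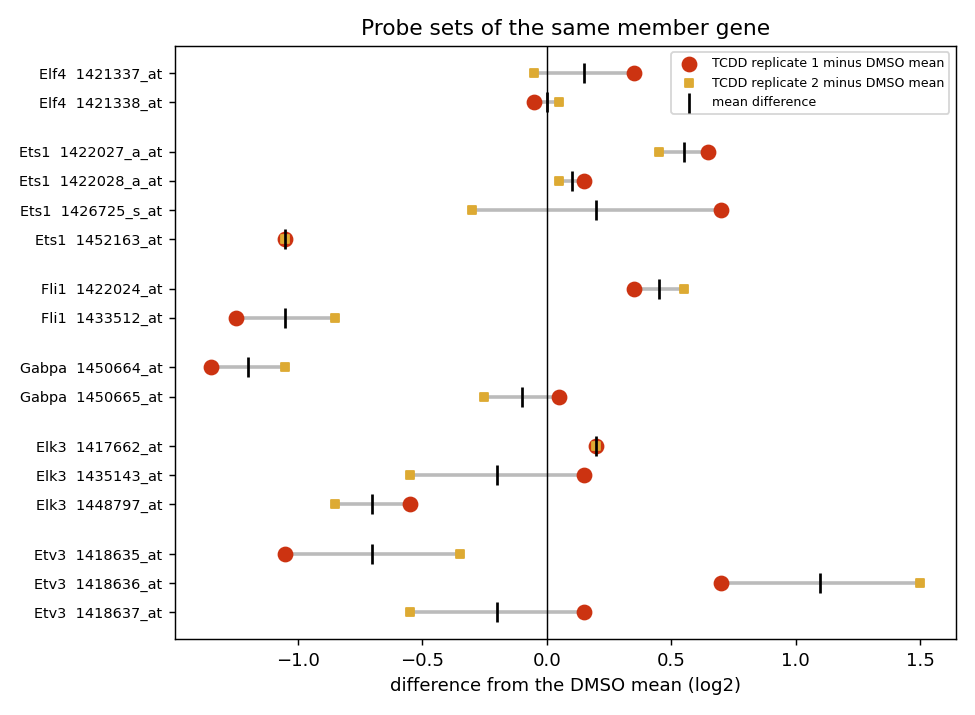
Distance of each TCDD array from the DMSO mean (log2, horizontal axis) for the 16 probe sets of the 6 members that have more than 1, grouped by gene; circles are TCDD replicate 1, squares TCDD replicate 2 and black ticks their mean. Probe sets of Ets1, Fli1 and Etv3 stand on both sides of 0, from -1.05 to 0.55 for Ets1, -1.05 to 0.45 for Fli1 and -0.70 to 1.10 for Etv3.

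Of 16 other ETS genes looked up 14 had a probe set with a single symbol, and their 25 probe sets had a median difference of 0.05. Without overlap 6 were higher (24.0%, against 19.0% over all probe sets) and 5 lower (20.0%, against 18.4%). These shares are near those over all probe sets. Elk4, a relative of Elk3, read 8.7 and 9.1 with DMSO and 7.9 in both TCDD arrays on 1427162_a_at, a difference of -1.0 (SE 0.174). Its other probe sets differed by -0.15 and 0.20, so Elk4 too had probe sets apart in both directions. Elf2, the closest relative of Elf1 in the list, read 7.5 and 8.2 with DMSO and 6.9 in both TCDD arrays on its brightest probe set, a difference of -0.95 (SE 0.291). The other probe sets of Elf2 differed by -0.05 and 0.05. On the higher side stood Elf3, an epithelial factor, at 6.7 and 6.8 with DMSO and 7.2 and 7.3 with TCDD, and Etv5 at 5.2 and 5.4 with DMSO and 5.7 and 5.9 with TCDD, each at 0.50. Spib, the PU.1 relative of B cells and plasmacytoid DC, read 8.0 and 7.3 with DMSO and 7.6 in both TCDD arrays, a difference of -0.05.

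**Figure D3:**
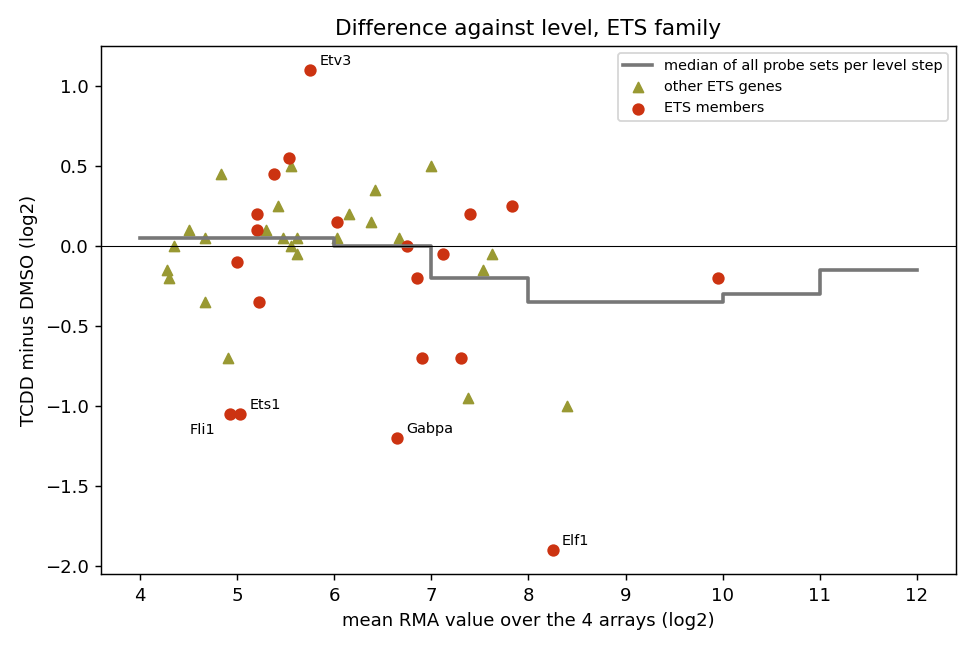
Difference TCDD minus DMSO (log2, vertical axis) against the mean RMA value over the 4 arrays (log2, horizontal axis) for the 20 ETS member probe sets (red circles) and the 25 of other ETS genes (triangles); the grey line is the median of all probe sets in steps of 1. Elf1 at -1.90 lies far under the grey line, which is at -0.35 there; named points differ by at least 1.

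Partners and signals of ETS factors were described with 1 probe set per gene, the brightest. Over all 12393 genes taken that way 20.0% were higher and 19.4% lower without overlap, and the median difference was 0.00. Median levels in DMSO replicate 1 were 7.4 for the partners and 7.8 for the MAP kinase pathway. All probe sets with means from 7 to 8 had a median difference of -0.2, and those from 8 to 9 of -0.35. Of all probe sets not dim 15.9% were higher and 24.1% lower. Of 19 DNA-binding partners and co-regulators 1 was higher and 6 were lower, with a median of -0.30. Under quantile normalization 3 were lower and the median was -0.07. These were 7 and -0.35 under median centring, and 5 and -0.16 under cyclic loess. Cbfb, the binding partner of RUNX factors, read 9.8 and 9.9 with DMSO and 8.2 and 9.4 with TCDD, lowest in TCDD replicate 1. Runx1 itself differed by 0.15. Jun, an AP-1 subunit that binds beside ETS factors, read 10.7 and 10.1 with DMSO and 8.6 and 9.5 with TCDD. Irf8, which pairs with PU.1 in DC, read 10.3 and 10.0 with DMSO and 10.0 and 9.8 with TCDD, and Irf4 read 7.5 and 8.2 with DMSO and 6.9 and 7.8 with TCDD. Both pairs of groups touched or overlapped.

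Of 7 MAP kinase pathway genes 3 were lower and 1, the dim Braf, was higher, with a median of -0.60 that lay between -0.65 and -0.30 under the other normalizations. Map2k1, a kinase that activates ERK, read 9.1 and 9.4 with DMSO and 7.9 and 8.4 with TCDD, a difference of -1.10 (SE 0.245). Nras, a GTPase upstream of it, read 8.6 and 8.4 with DMSO and 7.6 and 7.1 with TCDD, a difference of -1.15 (SE 0.227). Neither passed limma's test over all probe sets. Map2k2, the other ERK-activating kinase in the list, read 7.8 and 7.6 with DMSO and 8.0 and 7.4 with TCDD. Its groups overlapped at a difference of 0.0 (SE 0.264).

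Of 18 genes known to be regulated by PU.1 in myeloid cells 0 were higher and 5 were lower without overlap. Over all genes 20.0% were higher and 19.4% lower. The median of the 18 was -0.30, where all probe sets with means from 7 to 8 had -0.2 and from 8 to 9 -0.35. The median moved to -0.06 under quantile normalization and -0.10 under cyclic loess, where 1 gene was higher and 4 and 5 were lower. Il1b, the interleukin-1 beta gene, read 9.6 and 8.8 with DMSO and 7.7 and 8.1 with TCDD, a difference of -1.30 (SE 0.369). Csf2rb, a chain of the GM-CSF receptor, read 6.5 and 6.4 with DMSO and 5.7 and 5.8 with TCDD, a difference of -0.70 (SE 0.0848). Flt3, Csf1r and Tlr4 differed by -0.30, -0.15 and 0.10 with groups that overlapped. Beside this, 6 of 14 macrophage and monocyte markers were lower without overlap (4 under quantile normalization and cyclic loess) and 0 higher, with mean levels of 8.76 and 8.71 with DMSO and 8.21 and 8.12 with TCDD; Csf1r, Cd68 and Lyz2 are on both lists. Their part in the PU.1 list was not tested.

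**Figure D4:**
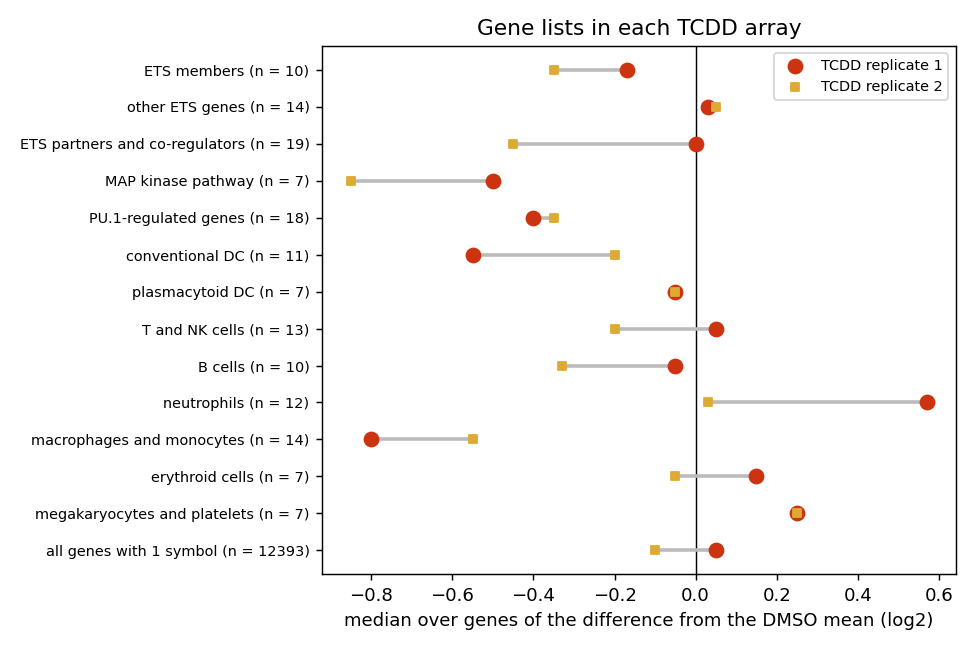
Median over the genes of each list (rows, brightest probe set per gene) of the distance of TCDD replicate 1 (circles) and TCDD replicate 2 (squares) from the DMSO mean (log2, horizontal axis). The 10 members sit at -0.17 and -0.35 and the other ETS genes at 0.03 and 0.05, while neutrophil markers stand at 0.57 in TCDD replicate 1 and 0.03 in TCDD replicate 2.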

How the data were processed

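RNA was amplified and hybridized to 4 Affymetrix mouse arrays, 2 per group. The authors deposited log2 values made with RMA, per the submitters' processing notes; no version is stated there. Values come in steps of 0.1, so they were rounded. Symbols came from the platform's annotation (20380 of 22626 probe sets with 1 symbol, 691 with several, 1555 with none), and 64 control probe sets were left out. TCDD was compared with DMSO in limma 3.58.1 (R 4.3.3; lmFit, eBayes, two-sided, Benjamini-Hochberg over all probe sets). SEs are limma's moderated ones. The fit was run on simulated data. Recovery of the changed probe sets was required only at a small, even spread, so this does not show what the fit can find here. Arrays give no counts, so their number limits the precision; 2 against 2 is too few for an exact permutation test to pass 0.05. The members and lists were chosen with earlier results of these data known. Every member probe set at or above the dim threshold was to be given by array. Of each list up to 4 genes were to be named, the 2 highest and 2 lowest without overlap. Others named (Irf4, Irf8, Srf, Gabpb1, Spib, Flt3, Csf1r, Tlr4, Map2k2, dim members) were added for their role. Alternatives were 3 normalizations, no dim probe sets, 1 probe set per gene, a replicate block, another prior, another threshold and each array left out. Promoter windows are RefSeq's, GRCm38.p6. Some listed genes were not analysed here.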

Additional observations from a re-analysis of the deposited data

How the results depend on the processing

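Limma called 0 probe sets under all settings run: quantile normalization, median centring, cyclic loess, no dim probe sets, 1 probe set per gene, a trended robust prior, an adjusted p under 0.10, each array left out, and the replicate number as a replicate block. The labels do not say that the numbers pair arrays; replicate 1 minus replicate 2 correlated at -0.189 between the groups, and the crossed replicate block, added after seeing the data, called 0 as well. Over all 22626 probe sets 4306 were higher and 4156 lower without overlap. These were 4773 and 3722 under quantile normalization, 2977 and 5567 under median centring, and 5064 and 5116 under cyclic loess. The member probe sets without overlap were 11, 4 higher and 7 lower, and from 9 to 10 under the 3 normalizations. Without dim probe sets they were 6 of 13: 2 higher (15.9% over all not dim), both under the dim threshold in DMSO and kept only through their TCDD values, and 4 lower (24.1%). With 1 probe set per gene they were 5 of 10: 1 higher (20.0% over all genes) and 4 lower (19.4%). The 1 higher was Fli1 on a dim probe set, whose other probe set was lower, and the dim Ets2 was among the 4 lower. Fewer probe sets were counted in both of these settings. With 1 array left out the member probe sets without overlap ranged from 12 to 16, with 5 to 8 higher and 7 to 11 lower. Groups separate more readily with a single array in a group, and the share over all probe sets is not given for these settings. The members' median difference then ranged from -0.28 to 0.03, and was -0.28 without TCDD replicate 1. The difference changed sign under some setting in 7 of 20 member probe sets, and under a normalization in 2, the Etv3 probe set 1418637_at and Etv6. The number of member genes with opposing probe sets, whose alternatives were chosen after seeing the data, was 4; it was 2 under quantile normalization and cyclic loess, 3 under median centring and 4 with each array left out, where the share over all genes went from 7.89% to between 15.3% and 26.4%.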
